A study of Mus musculus with 9 samples.

Results

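The genes described here encode receptors that bind phosphatidylserine directly on the surface of a dying cell: Timd4, Havcr1, Havcr2, Stab1, Stab2, Cd300lf, Cd300lb and Megf10. They were taken by gene symbol, as 8 of the 19938 genes on the array with a probe set that the platform annotation gives to a single gene, and each had 1 such probe set. RNA levels were measured in 3 cell populations sorted by flow cytometry from mice of genotype CX3CR1 gfp+/-, in which 1 copy of the fractalkine receptor gene carries a green fluorescent reporter. All 3 populations carry this reporter allele, and the labels give no age, sex or number of mice behind an array. T cell zone macrophages (TZM) of the lymph node were bright for the reporter, positive for MertK and CD11b and without CD169. Brain macrophages, labelled microglia, were bright for the reporter and positive for CD11b and CD45. CD8a+ dendritic cells (DC) lacked CD64 and carried CD8a together with high CD11c and high MHC class II. The sample fields place the DC in the lymph node, while the sorting protocol places them in the spleen. Each population has 3 arrays, titled as biological replicates. None of the 8 receptors was a sort marker.

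Healthy cells keep phosphatidylserine on the inner leaflet of the plasma membrane, and apoptotic cells expose it on the outside, where it marks them for uptake (efferocytosis). Phagocytes read the lipid either through soluble bridging proteins, such as Gas6 and protein S for the TAM receptor kinases, or through receptors that bind it themselves. The direct receptors fall into the TIM family (Timd4, Havcr1, Havcr2), the stabilins (Stab1, Stab2), the Cd300 family (Cd300lf, Cd300lb) and the EGF-repeat protein Megf10. The title of the series ties TZM to the disposal of apoptotic cells, so the comparisons ask which of these receptors TZM carry that DC and microglia do not, and the reverse.

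The populations carried the markers of their labels. Over 7 macrophage genes, some of them sort markers, the mean level ran from 10.12 to 10.52 (log2) on the TZM arrays, from 11.10 to 11.21 on the microglia arrays and from 5.28 to 5.56 on the DC arrays. Over 7 genes of CD8a+ DC, among them the sort marker Cd8a, it was 9.43 to 9.56 in DC, 5.26 to 5.42 in TZM and 4.70 to 4.80 in microglia. A set of 6 microglia genes was at 11.21 to 11.32 in microglia, 7.23 to 7.32 in TZM and 5.07 to 5.20 in DC. Levels are log2 values after robust multi-array averaging (RMA), with array medians from 4.90 to 5.02 over all genes. No detection call was used, so a level near or under those medians is not separated from background. A gene was called between populations where its Benjamini-Hochberg adjusted p over all genes in limma was under 0.05 and its log2 fold change reached 1 in either direction.

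TZM replicate 2 lay farthest from its own group, at a mean distance of 48.1 over all genes, against 39.6 and 41.8 for TZM replicates 1 and 3. It was the lowest of the 3 TZM arrays for 7 of the 8 receptors, and the eighth, Megf10, was tied. Over all genes this array was the lowest for 33.4%, and over the 7678 genes that reach a level of 6 on at least 3 arrays for 40.2%. Over the same 7678 genes, replicate 2 was the lowest for 44.3% in DC and for 42.1% in microglia. Among the DC arrays, replicate 1 was the lowest for 6 of the 8 receptors. The macrophage genes C1qb (10.73, against 11.79 and 11.67) and Fcgr1 (7.44, against 8.36 and 7.99) were also lowest in TZM replicate 2. The sort marker Mertk was at 10.02 on all 3 TZM arrays. S100a8 and S100a9, which are abundant in neutrophils and monocytes, were at 9.28 and 9.39 in TZM replicate 2, at 5.89 and 6.21 in replicate 1 and at 7.32 and 7.89 in replicate 3. The neutrophil gene Ly6g was low on every array, at 3.13, 3.13 and 3.24 in TZM. The part of these transcripts in the receptor levels was not tested, and receptor differences are given with and without this array where it moves them.

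**Figure D1:**
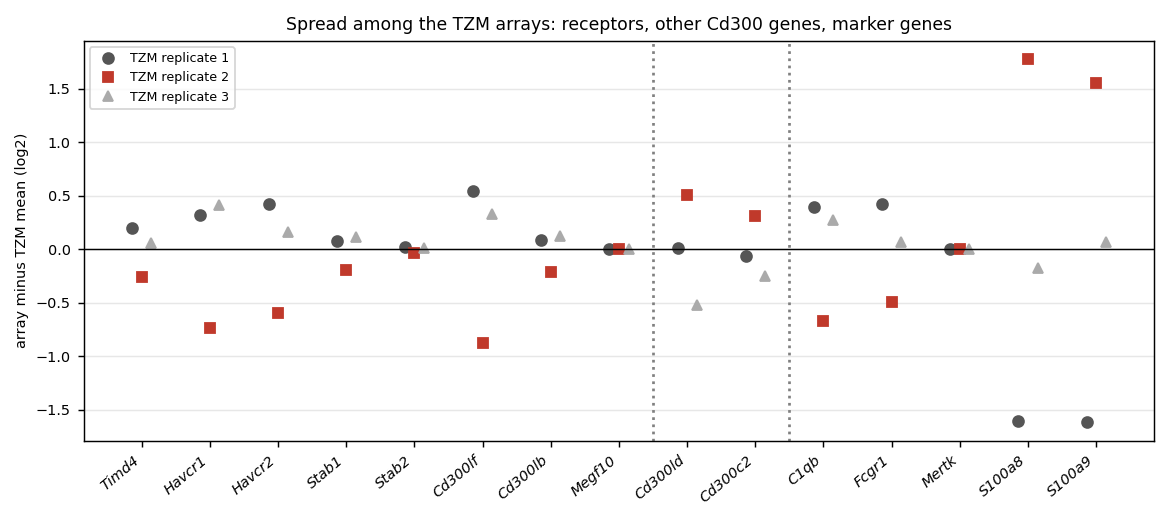
Level of each TZM array minus the mean of the 3 TZM arrays (log2 units, vertical axis) for the 8 receptors, 2 other Cd300 genes and 5 marker genes, separated by dotted lines. TZM replicate 2 (red squares) is the lowest array for 7 receptors and the highest for Cd300ld, Cd300c2, S100a8 and S100a9.

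Of the 8 receptors, 4 were called between TZM and DC: Timd4, Cd300lf and Stab1 were higher in TZM and Havcr2 was lower. Over all genes 8.74% were called in this comparison, 4.71% higher and 4.03% lower. Between TZM and microglia 4 were called, against 7.65% of all genes (4.25% higher and 3.4% lower), with Timd4, Cd300lf and Havcr1 higher in TZM and Stab1 lower. Between microglia and DC 2 were called, Stab1 higher and Timd4 lower in microglia, against 11.2% of all genes (5.15% higher and 6.01% lower). Timd4 and Cd300lf exceeded DC as well as microglia by these criteria in TZM, as did 2.06% of all genes. The median log2 fold change over the 8 receptors was 0.33 for TZM against DC, 0.33 for TZM against microglia and -0.39 for microglia against DC, beside 0.015, 0.012 and 0.0069 over all genes. These comparisons share arrays, so they are set side by side and not counted as separate evidence. The arrays of the compared populations did not overlap for 5 of 8 receptors between TZM and DC (32.3% of all genes), for 6 of 8 between TZM and microglia (30.5%) and for 5 of 8 between microglia and DC (37.8%).

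**Figure D2:**
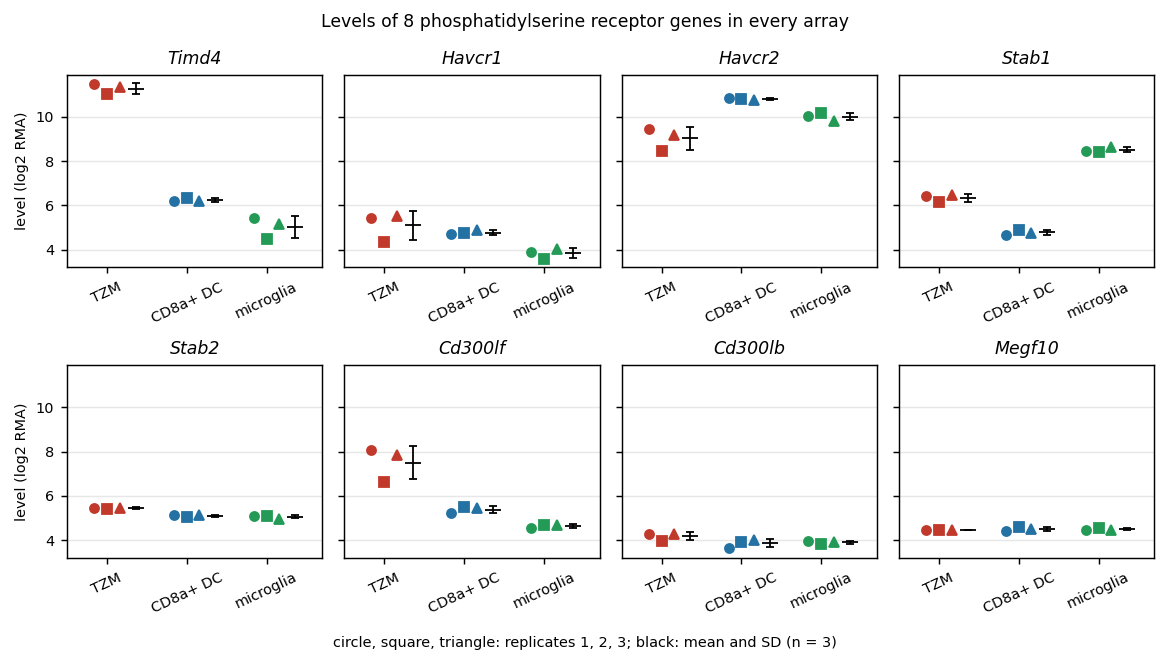
Level (log2 RMA, vertical axis) of each receptor gene on all 9 arrays, with TZM in red, CD8a+ DC in blue and microglia in green, and the mean with SD (n = 3) in black. Timd4 is near 11 in TZM only, Havcr2 is above 8 everywhere and highest in DC, Stab1 is highest in microglia, and Stab2, Cd300lb and Megf10 stay between 3.66 and 5.47.

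Promoter sequences are shown for receptors whose arrays in 1 population lay above all others and whose group means spanned at least 1. These were Timd4 and Cd300lf in TZM, Havcr2 in DC and Stab1 in microglia. Stab2 was also highest in TZM without overlap, but its group means spanned 0.39 and its sequence is not shown. The RefSeq promoter table (GRCm38.p6) matched 7 of the 8 receptors, with Megf10 the exception. Each stretch of 170 bases runs from 150 bases before the annotated start to 20 after it, 5′ to 3′ on the strand of the gene. The positions are chr11:46810649-46810818 (plus strand) for Timd4, chr11:115133973-115134142 (minus strand) for Cd300lf, chr11:46454781-46454950 (plus strand) for Havcr2 and chr14:31168622-31168791 (minus strand) for Stab1. Capitals mark exact matches to the letters GAGGAAGT, a form of the site of the myeloid factor PU.1, or to GGAA followed by any 2 bases and GAAA, a composite site of ETS and IRF factors, searched on both strands.
Timd4: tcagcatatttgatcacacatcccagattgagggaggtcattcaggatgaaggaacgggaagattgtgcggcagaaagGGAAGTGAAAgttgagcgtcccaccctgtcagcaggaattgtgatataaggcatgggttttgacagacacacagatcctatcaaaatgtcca
Cd300lf: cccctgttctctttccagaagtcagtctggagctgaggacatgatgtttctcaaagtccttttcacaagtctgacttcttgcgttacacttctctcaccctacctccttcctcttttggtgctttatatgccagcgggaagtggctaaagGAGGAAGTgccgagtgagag
Havcr2: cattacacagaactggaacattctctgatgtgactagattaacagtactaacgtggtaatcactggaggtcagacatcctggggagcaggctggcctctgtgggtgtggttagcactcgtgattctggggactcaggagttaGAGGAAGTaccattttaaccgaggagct
Stab1: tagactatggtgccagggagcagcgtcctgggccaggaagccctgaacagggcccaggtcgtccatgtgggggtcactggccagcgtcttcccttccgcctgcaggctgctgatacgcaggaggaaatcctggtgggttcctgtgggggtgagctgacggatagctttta

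In Timd4 the composite letters begin 72 bases before the start. The PU.1 letters begin 8 bases before the start in Havcr2 and at the start base itself in Cd300lf. Timd4 and Cd300lf, both highest in TZM, did not share either motif, while Cd300lf and Havcr2 shared the PU.1 letters. The Stab1 window held neither. Over all 32851 promoter windows of 300 bases (250 before to 50 after a start), 3.2% held the PU.1 letters and 2.72% the composite letters. Of the windows not shown, those of Havcr1 and Cd300lb held neither. The window of Stab2, also highest in TZM without overlap, held the composite letters, as that of Timd4 did. In Stab2 they lay at 2 places in a run rich in purines or pyrimidines. A match describes the sequence, and binding was not measured.

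The TIM receptors share a phosphatidylserine-binding immunoglobulin domain on a mucin stalk. Timd4 (TIM-4) is known on tissue-resident macrophages as a receptor that tethers apoptotic cells, with a short tail that relies on partner receptors for signalling. Its level was 11.47, 11.00 and 11.32 in the TZM arrays, 6.19, 6.34 and 6.20 in DC and 5.41, 4.49 and 5.17 in microglia. Every TZM array lay above every array of the other populations, and the DC arrays lay above the microglia arrays. Timd4 was 32.4-fold higher in TZM than in DC (log2 fold change 5.02, SE 0.22, adjusted p = 1.0e-06). Over microglia the measured fold was 75.5 (6.24, SE 0.22, adjusted p = 3.7e-07). The microglia level is not separated from background, so the measured folds over it are estimates that may understate the difference. Since these are sorted pools of cells, a larger share of expressing cells and more RNA per cell cannot be told apart, for Timd4 or any other gene here. The DC level was a measured 2.33-fold above that of microglia (log2 fold change of microglia against DC -1.22, 95% confidence interval -1.73 to -0.71, adjusted p = 0.0036). Without microglia replicate 2 it was -0.95 (adjusted p = 0.0024), which ended the call through the fold minimum alone.

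Most listed genes of other lymphoid macrophages were also higher in TZM. Of 7 measured genes of sinus and marginal zone macrophages, 6 were called higher in TZM than in DC (4.71% of all genes). Against microglia 6 were called higher in TZM (4.25% of all genes). Their mean level was 6.47 to 7.08 in TZM, 4.46 to 4.56 in DC and 4.18 to 4.34 in microglia. Siglec1, which encodes the CD169 that the TZM sort excluded, was at 8.15, 6.80 and 7.21 in TZM and at 4.89 ± 0.22 (SD, n = 3) in DC. Cd209b, a lectin of marginal zone macrophages, was at 7.45, 5.33 and 5.78. TZM replicate 1, the highest for Siglec1, Cd209b and the mean of the list, was also the highest for Timd4. Marco of the same list was highest in TZM replicate 2. The part of sinus and marginal zone macrophages in the Timd4 level was not tested. The scavenger receptor gene Cd163 was the member of this list that was not called against either population. TZM averaged 3.99 ± 0.11 for it, compared with 3.80 ± 0.06 for DC and 4.70 ± 0.54 for microglia. Its log2 fold change was 0.19 for TZM against DC (adjusted p = 0.67). Against microglia it had the opposite sign, at -0.71 (adjusted p = 0.065).

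Havcr2 (TIM-3) is known as a checkpoint receptor of T cells that is also carried by myeloid cells, including CD8a+ DC. Levels were 10.83, 10.81 and 10.76 in DC, 10.01, 10.14 and 9.82 in microglia and 9.45, 8.43 and 9.19 in TZM. The 3 populations did not overlap, in the order DC, microglia, TZM. Havcr2 was 3.42-fold higher in DC than in TZM (log2 fold change of TZM against DC -1.77, SE 0.23, adjusted p = 0.00063). Without TZM replicate 2 this was -1.48. Between TZM and microglia the log2 fold change was -0.97 (95% confidence interval -1.49 to -0.45, adjusted p = 0.018), just under the fold minimum. It passed that minimum under quantile normalization (-1.07) and without TZM replicate 1 (-1.18), TZM replicate 3 (-1.05) or microglia replicate 3 (-1.06), and was -0.67 without TZM replicate 2. Between microglia and DC it was -0.80 (adjusted p = 0.032), also under the minimum. By adjusted p alone 25.1% of all genes passed in that comparison.

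Havcr1 (TIM-1, or KIM-1) is best known from injured kidney epithelium, which it turns into a phagocytic tissue, and from lymphocytes. Its levels were 5.41, 4.36 and 5.51 in TZM, 4.69, 4.74 and 4.90 in DC and 3.88, 3.60 and 4.04 in microglia. All of these lie near or under the array medians apart from TZM replicates 1 and 3. TZM overlapped with DC, because TZM replicate 2 lay under every DC array, and did not overlap with microglia. The Havcr1 level of TZM exceeded that of microglia by 1.25 (SE 0.28, adjusted p = 0.014). That call ended without TZM replicate 1 (1.09, adjusted p = 0.052), without microglia replicate 2 (1.13, adjusted p = 0.0501) and with only TZM and microglia in the fit (1.25, adjusted p = 0.054). It held without TZM replicate 2, where the difference was 1.62 (adjusted p = 9.9e-05). Against DC the log2 fold change was 0.32 (95% confidence interval -0.32 to 0.96, adjusted p = 0.54), and 0.69 without TZM replicate 2 (adjusted p = 0.0079), still under the fold minimum. Microglia against DC gave -0.93 (adjusted p = 0.041).

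Some lymphocyte genes differed between the populations as well. Over 6 measured T cell genes the mean level was 6.13 to 6.57 in TZM, 5.09 to 5.29 in DC and 4.60 to 4.70 in microglia. Of these genes 2 were called higher in TZM than in DC (4.71% of all genes) and 4 higher than in microglia (4.25%). The member Cd4, which macrophages can carry, was at 10.83 ± 0.24 in TZM and 6.76 ± 0.08 in DC, whereas the T cell receptor subunit gene Cd3e was at 6.14 ± 0.21 in TZM and 5.61 ± 0.16 in DC. Thy1, the other gene called against DC, was at 6.89, 5.87 and 7.02 in the TZM arrays and at 5.32 ± 0.29 in DC. Cd3g was at 3.94, 4.37 and 5.02 in the TZM arrays and at 3.57 ± 0.04 in DC, and Cd5 was at 5.76 ± 0.24 in DC and 5.08 ± 0.15 in TZM. Of 5 measured B cell genes 2 were called higher in TZM than in DC (Cd79b and Cd22) and 1 was lower (Ms4a1), beside 4.71% and 4.03% of all genes. Against microglia 2 were called higher in TZM (Cd79a and Cd22), beside 4.25% of all genes. The mean level of the B cell genes was 6.03 to 6.35 in TZM, 5.49 to 5.53 in DC and 4.96 to 5.16 in microglia. Cd79b, a subunit of the B cell receptor, was at 9.69, 8.27 and 9.86 in the TZM arrays, and Cd22 was at 7.92, 7.16 and 7.77. Havcr1, Thy1, Cd79b and Cd22 were all lowest in TZM replicate 2, whereas Cd79a and Ms4a1 were highest there. The part of T cells and B cells in the receptor levels of TZM was not tested.

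Timd4, Havcr1 and Havcr2 lie near each other on chromosome 11, in a stretch of 7 protein-coding genes from Havcr2 to Timd4 in RefSeq, of which 6 were measured. Only Havcr2, Havcr1 and Timd4 of the 6 were called in any comparison. The measured genes between Havcr2 and Havcr1, Timd2, Dppa1 and BC053393, had mean levels from 3.13 to 3.56 in all populations, with log2 fold changes from -0.10 to 0.06. At the ends of the stretch, Havcr2 was highest in DC and Timd4 in TZM.

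**Figure D3:**
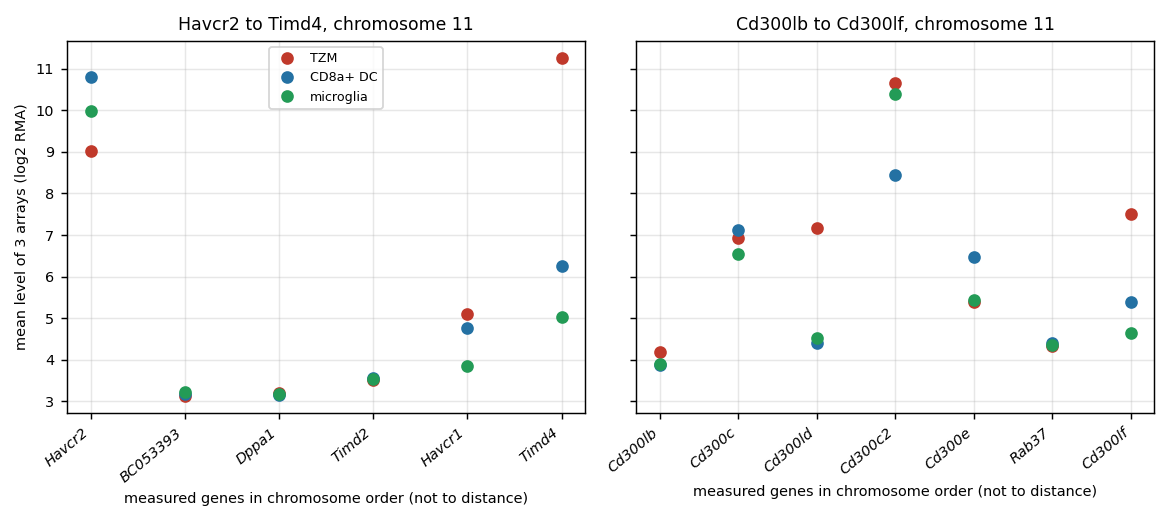
Mean level of 3 arrays (log2 RMA, vertical axis) of the measured protein-coding genes from Havcr2 to Timd4 (left) and from Cd300lb to Cd300lf (right), in chromosome order and not to distance, with TZM in red, CD8a+ DC in blue and microglia in green. Timd4, Cd300ld and Cd300lf stand above both other populations in TZM, while Havcr2 is highest in DC and Cd300c2 is high in TZM and microglia alike.

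The Cd300 genes encode paired activating and inhibitory immunoglobulin receptors of myeloid cells, several of which bind phosphatidylserine and other lipids. Cd300lf (CLM-1), the receptor gene with the PU.1 letters at its start base, carries inhibitory motifs in its tail and has been tied to the uptake of apoptotic cells. It was at 8.05, 6.63 and 7.84 in TZM, 5.22, 5.49 and 5.45 in DC and 4.54, 4.70 and 4.67 in microglia. TZM did not overlap with either, although TZM replicate 2 was well below the other TZM arrays. Cd300lf was 4.35-fold higher in TZM than in DC (log2 fold change 2.12, SE 0.32, adjusted p = 0.0016). The measured fold over microglia, where it is not separated from background, was 7.29 (2.87, SE 0.32, adjusted p = 0.00031). Without TZM replicate 2 the differences were 2.56 and 3.30. DC and microglia did not overlap but the difference was not called (microglia against DC -0.75, 95% confidence interval -1.48 to -0.02, adjusted p = 0.14). In the fit without TZM replicate 2 the same difference had an adjusted p of 0.00081, and it stayed under the fold minimum.

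Of 6 monocyte and neutrophil genes 3 were called higher in TZM than in DC (S100a8, S100a9 and Csf3r), beside 4.71% of all genes. Against microglia 3 were higher (S100a8, S100a9 and Ccr2) and 1, Csf3r, was lower, beside 4.25% and 3.4% of all genes. The mean level of the list was 5.61, 6.74 and 6.19 in TZM, 4.68 to 4.71 in DC and 5.14 to 5.18 in microglia. Cd300lf was lowest in TZM replicate 2, where the mean of the list was highest. S100a8, S100a9 and Ccr2 were highest on that array, while Csf3r was lowest there (7.49, against 7.81 and 7.81). The part of these transcripts in the Cd300lf level was not tested.

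Cd300lb (CLM-7), an activating receptor that signals through the adaptor Tyrobp, was at 4.27, 3.97 and 4.31 in TZM, 3.66, 3.94 and 3.998 in DC and 3.97, 3.84 and 3.91 in microglia. The populations overlapped, under the array medians. Its log2 fold change was 0.32 for TZM against DC (95% confidence interval 0.05 to 0.58, adjusted p = 0.10) and 0.27 for TZM against microglia (0.0072 to 0.54, adjusted p = 0.16). Both intervals end below the fold minimum of 1, at levels that are not separated from background. Without TZM replicate 2 the differences were 0.42 (adjusted p = 0.026) and 0.38 (adjusted p = 0.042), still under that minimum.

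From Cd300lb to Cd300lf RefSeq lists 11 protein-coding genes on chromosome 11, of which 7 were measured, and the order of populations changed from gene to gene. Cd300ld, an activating member, was at 7.18, 7.67 and 6.64 in TZM, 4.41 ± 0.03 in DC and 4.52 ± 0.14 in microglia, so that TZM exceeded DC by 2.76 (SE 0.22, adjusted p = 3.5e-05) and microglia by 2.64 (adjusted p = 5.5e-05). Here TZM replicate 2 was the highest array, unlike for Cd300lf. Cd300c2 was at 10.66 ± 0.29 in TZM and 10.40 ± 0.10 in microglia, both above DC at 8.44 ± 0.23 (log2 fold change of TZM against DC 2.22, adjusted p = 2.0e-05). Cd300e was lower in TZM than in DC at -1.07 (adjusted p = 0.00010), and without TZM replicate 1 at -0.98, under the fold minimum. Cd300c and Rab37 were not called in any comparison.

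Stabilins are large scavenger receptors of sinusoidal endothelium and of some macrophages, with phosphatidylserine-binding EGF repeats. Stab1 was at 8.47, 8.41 and 8.64 in microglia, 6.42, 6.15 and 6.46 in TZM and 4.67, 4.90 and 4.77 in DC. The populations did not overlap, and the order was microglia, TZM, DC. The DC level lies under the array medians, so the measured folds over it are estimates that may understate the difference. Stab1 was a measured 13.2-fold higher in microglia than in DC (log2 fold change 3.73, SE 0.11, adjusted p = 5.5e-08). TZM were a measured 2.95-fold above DC (1.56, SE 0.11, adjusted p = 1.3e-05) and 4.49-fold below microglia (log2 fold change -2.17, SE 0.11, adjusted p = 2.4e-06). Stab1 separated the macrophages of both tissues from DC, which Timd4 did not.

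Stab1 is also a gene of endothelium and of the macrophages at the borders of the brain. Border macrophage genes varied among the microglia arrays: Ms4a7 was at 6.80, 4.37 and 6.63, Pf4 at 9.11, 7.05 and 8.72 and Mrc1 at 8.96, 7.21 and 8.54. Over all 7 genes of this list the mean was 6.76, 5.34 and 6.58 in the microglia arrays, 6.44 to 6.70 in TZM and 4.23 to 4.38 in DC. Stab1 was at 8.41 in microglia replicate 2, where these genes were lowest, and at 8.47 and 8.64 in the others. Timd4 (4.49, against 5.41 and 5.17) was lowest in that same array, as was Ttr of the choroid plexus, whose list had mean levels of 6.74, 4.79 and 6.49. The endothelial list of 11 genes had a mean of 4.92 to 4.96 in microglia, 4.81 to 4.86 in TZM and 4.63 to 4.70 in DC. In it 2 genes, Prox1 and Lyve1, were called higher in microglia than in DC (5.15% of all genes) and than in TZM (3.4%). Prox1, a transcription factor of lymphatic endothelium, was at 5.48 ± 0.20 in microglia, 3.74 ± 0.11 in TZM and 3.76 ± 0.07 in DC. The vascular genes Cldn5, Emcn, Kdr and Tie1 were not called in any comparison. Lyve1, shared by lymphatic endothelium and border macrophages, was at 6.24, 5.85 and 6.41 in microglia and 5.13 ± 0.14 in TZM, and Cdh5 was at 7.65 ± 0.11 in TZM and 5.38 ± 0.15 in DC.

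Stab2, a hyaluronan and phosphatidylserine receptor of liver and lymph node sinus endothelium, was at 5.47, 5.42 and 5.46 in TZM, 5.14, 5.03 and 5.14 in DC and 5.11, 5.11 and 4.97 in microglia. TZM did not overlap with the others, and DC and microglia overlapped. The difference was small but larger than the spread between arrays: 0.35 against DC (95% confidence interval 0.21 to 0.49, adjusted p = 0.0041) and 0.39 against microglia (0.24 to 0.53, adjusted p = 0.0026). Neither reached the fold minimum. By adjusted p alone 20.2% and 19.4% of all genes passed in these comparisons. Between microglia and DC the log2 fold change was -0.04 (95% confidence interval -0.18 to 0.11).

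Megf10, an engulfment receptor best known from astrocytes, showed no difference that these arrays could resolve. Its summarised level was 4.48 on 5 of the 9 arrays, the 3 TZM arrays among them, and 4.43 to 4.60 on the rest. Such a value, shared by 5 or more arrays, occurred in 1413 of the 19938 genes. The log2 fold changes were -0.03 (95% confidence interval -0.17 to 0.10) for TZM against DC, -0.02 (-0.15 to 0.12) for TZM against microglia and -0.01 (-0.15 to 0.12) for microglia against DC.

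**Figure D4:**
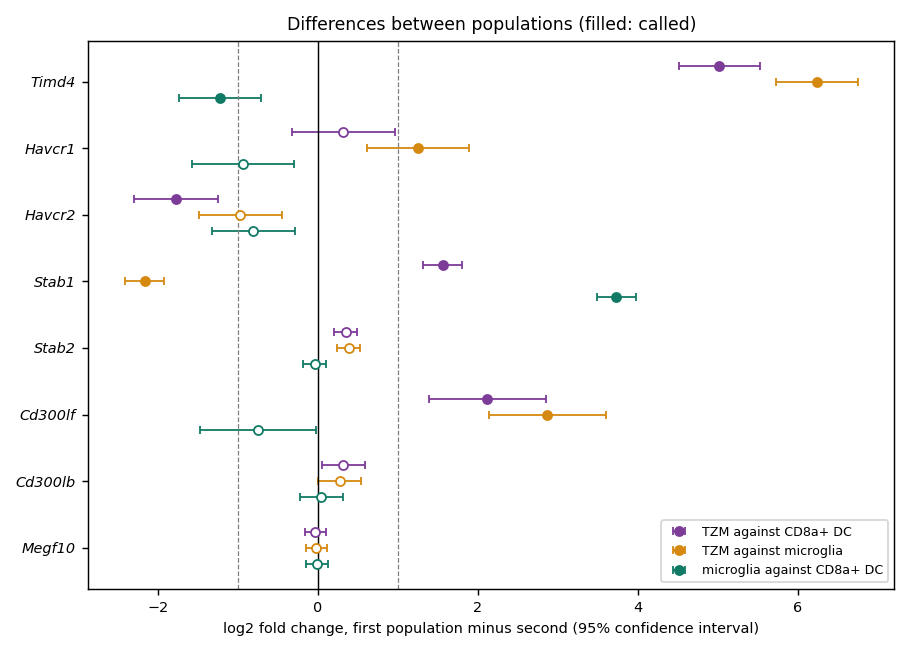
Log2 fold change between populations (first minus second, horizontal axis) of each receptor gene with its 95% confidence interval from limma, filled where called, with dashed lines at the fold minimum of 1 in either direction. Timd4 has the differences of 5.02 and 6.24 at the right, Stab1 has the opposite signs against DC and microglia, and the intervals of Stab2, Cd300lb and Megf10 lie inside the dashed lines.

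The genes most like each receptor were found by the root mean square distance between profiles over the 9 arrays, each centred on its own mean, among 18158 named genes. For Timd4 the nearest was Cd4, at a distance of 0.43 (log2), with means of 10.83 in TZM, 6.76 in DC and 5.32 in microglia. It was followed by Prg3, Cxcr2 and the complement factor Cfb at 0.57, 0.58 and 0.59. For Cd300lf they were Dhrs1 (0.22), Ly6i (0.24), Cdc42ep2 (0.27) and Ehd1 (0.29). For Stab1 the nearest was Txnip, a thioredoxin-binding protein, at 0.13, with means of 11.54 in microglia, 9.36 in TZM and 7.74 in DC. Adgrl2, Agmo and Eng, the endothelial co-receptor endoglin, lay at 0.16, 0.23 and 0.28. Havcr2 was nearest to Preb (0.17), Ipcef1 (0.20), Ccnt2 (0.21) and Acox3 (0.23), and Havcr1 to the class I gene H2-Q4 (0.18), Apip (0.21), Bcat2 (0.22) and Stap2 (0.22). These distances describe 9 arrays in 3 groups, so many genes with the same order of groups lie close.

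Other genes of the pathway were read from lists, of which 64 of 69 members were measured. In all, 20 of the 64 were called between TZM and DC (16 higher, 4 lower), 16 between TZM and microglia (6 higher, 10 lower) and 20 between microglia and DC (16 higher, 4 lower). These are 31.2%, 25% and 31.2% of the measured members, beside 8.74%, 7.65% and 11.2% of all genes. The lists were chosen with earlier results known, so nothing is read from the difference. Of 16 receptor relatives and other phosphatidylserine receptors, 4 were called between TZM and DC (25%, beside 8.74% of all genes). All 4 were of the Cd300 family, and 3 of them were higher. Beside Cd300ld and Cd300c2 this was Cd300a, an inhibitory receptor, at 1.45 (SE 0.24, adjusted p = 0.0028). Trem2, a lipid-sensing receptor of microglia, was at 9.97 ± 0.20 in microglia, 6.23 ± 0.04 in TZM and 5.63 ± 0.60 in DC, lower in TZM than in microglia at -3.74 (adjusted p = 1.8e-05). Adgrb1 (BAI1), a direct receptor that works through Elmo1 and Dock1, was at 5.32 ± 0.11, 5.32 ± 0.08 and 5.30 ± 0.09 in TZM, DC and microglia.

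Partners and bridging molecules were the list with the most calls. Of 12 genes, 6 were higher and 0 lower in TZM than in DC (median 0.77), beside 4.71% and 4.03% of all genes. In microglia 7 were higher and 0 lower than in DC (median 1.53), beside 5.15% and 6.01%. Against microglia 6 were lower in TZM and 1 higher (median -0.995), beside 3.4% and 4.25%. The bridging protein gene Pros1 was at 9.85 ± 0.22 in microglia, 7.23 ± 0.27 in TZM and 4.27 ± 0.22 in DC. Lrp1, an uptake receptor, was lower in TZM than in microglia at -2.92 (adjusted p = 2.2e-07), and Itgb5, an integrin subunit that pairs with Itgav, at -2.05 (adjusted p = 2.5e-05). Axl was the exception, at 10.42, 9.62 and 10.25 in TZM, 5.19 ± 0.32 in DC and 6.01 ± 0.12 in microglia, higher in TZM by 4.90 and 4.09. Mertk, a sort marker of TZM and a known partner of Timd4 in uptake, differed by -0.63 from microglia and was not called there.

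Of 18 adaptors and engulfment genes 4 were called between TZM and DC (22.2%), 2 between TZM and microglia (11.1%) and 4 between microglia and DC (22.2%), beside 8.74%, 7.65% and 11.2% of all genes. Tyrobp, the adaptor of Cd300lb, had levels of 11.94 ± 0.05, 11.35 ± 0.02 and 12.07 ± 0.08 in TZM, DC and microglia. Fcer1g, an adaptor used by several activating Cd300 receptors, was higher than in DC by 3.03 in TZM (adjusted p = 1.6e-07) and by 3.05 in microglia. The Rac activator Dock1 was higher than in DC by 3.13 in TZM (adjusted p = 1.4e-06), and its partner Elmo1 was lower in TZM than in microglia at -1.83 (adjusted p = 8.1e-06). Gulp1, the adaptor of the stabilins and Megf10, was low throughout, at 3.05 ± 0.03, 3.06 ± 0.01 and 3.03 ± 0.02 in TZM, DC and microglia.

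Of 4 ligands of Havcr2 other than phosphatidylserine, Lgals9 (galectin-9) and Ceacam1 were higher in TZM than in DC, by 3.08 (SE 0.15, adjusted p = 2.1e-06) and 1.79 (adjusted p = 0.00049), and higher in microglia than in DC, by 3.10 and 2.39. None of the 4 was called between TZM and microglia. Over all genes 4.71% were called higher in TZM than in DC, 5.15% higher in microglia than in DC and 7.65% between TZM and microglia. Lgals9 was lowest in DC, the population with the highest Havcr2. Hmgb1 and Bag6 were not called in any comparison.

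Of 14 measured scramblases and flippases, which expose phosphatidylserine or return it to the inner leaflet, 4 were called between TZM and DC (28.6%). Between TZM and microglia 5 were called (35.7%), and between microglia and DC 4 (28.6%). The shares over all genes were 8.74%, 7.65% and 11.2%. Ano6, a calcium-dependent scramblase, was at 8.87, 8.50 and 8.52 in TZM, 7.09 ± 0.25 in DC and 7.08 ± 0.01 in microglia, higher in TZM by 1.54 (adjusted p = 7.0e-05) and 1.55 (adjusted p = 7.9e-05). The flippase Atp11a was higher in TZM by 1.34 and 2.29. Atp8a2, another flippase, was at 8.74 ± 0.14 in microglia and at 4.10 ± 0.09 and 4.18 ± 0.03 in TZM and DC. Tmem30a, the chaperone subunit of these flippases, and Xkr8, a caspase-activated scramblase, were not called in any comparison.

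**Figure D5:**
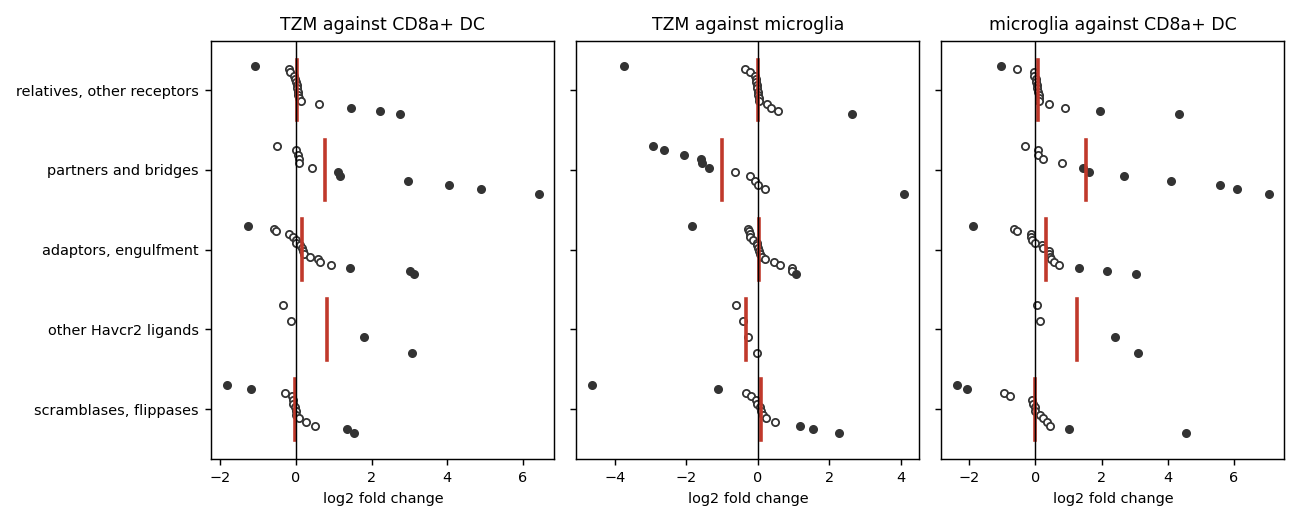
Log2 fold change (first minus second population, horizontal axis) of each measured gene in the 5 pathway lists for the 3 comparisons, filled where called, with the median of each list as a red line. The bridging list has medians of 0.77, -0.995 and 1.53, while the relatives and the scramblases sit around 0 with a few genes far out on both sides.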

How the data were processed

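RNA of 9 samples (3 TZM, 3 CD8a+ DC, 3 microglia) was hybridised to Affymetrix mouse gene arrays. The authors deposited log2 expression values, made with Affymetrix Expression Console 1.3.1 and RMA per the submitters' processing notes. This method removes background, brings the arrays to a common distribution and combines the probes of a set, which compresses differences among dim genes and can give identical values on several arrays. Of 35556 probe sets, 21789 had 1 gene symbol, 1621 several and 12146 none. The brightest single-symbol probe set was kept per gene, which left 19938 genes.

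All 9 arrays entered a single linear model per gene with the population as its factor, fitted and moderated with limma 3.58.1 (lmFit, eBayes) under R 4.3.3. SEs, confidence intervals and adjusted p-values come from this fit, which was tested on simulated data. The number of arrays limits the precision. The members, lists, markers and promoter motifs were chosen with earlier results of these data known, or, for the motifs, with the promoters in view. In each comparison the text names at most the 4 called members of a pathway list with the largest differences, and for likeness the 4 nearest genes to each receptor whose group means spanned at least 1, predicted genes, clones, small RNAs, receptor segments and the 8 receptors passed over. Genes named as not called, markers and neighbours serve as context outside this rule.

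Alternatives were no fold minimum, a level filter (at least 6 on at least 3 arrays), median centring, quantile normalization, the mean of probe sets, every probe set, a fit of only the compared groups, trended robust eBayes, a block for the replicate number, array weights, and leaving out single arrays.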

Additional observations from a re-analysis of the deposited data

How the results depend on the processing

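Of 10 receptor calls, 8 held under every alternative run, and the exceptions were Havcr1 between TZM and microglia and Timd4 between microglia and DC, described with their values above. Of 47 named calls of pathway genes, 42 held. The count of receptors called was 4 to 5 for TZM against DC, 3 to 6 for TZM against microglia and 1 to 4 for microglia against DC. The last reached 4 with no fold minimum, where pathway genes rose from 20 to 32, and ran from 1 to 2 with single arrays left out, with 1 without microglia replicate 2. Signs turned only for differences near 0 that were never called: Megf10 for TZM against DC (-0.074 to 0.0092) and for microglia against DC (-0.055 to 0.028), Cd300lb for microglia against DC (-0.058 to 0.11) and Stab2 for microglia against DC (-0.072 to 0.0092), each as the range over single arrays left out. Over the same fits Megf10 for TZM against microglia reached 0 without a change of sign (-0.028 to 0). The level filter removed Havcr1, Stab2, Cd300lb and Megf10, and no receptor had a further probe set to try. Deviations of same-numbered arrays of different populations correlated at r from -0.15 to 0.13 over 9 pairs, against -0.19 to 0.15 over 18 pairs of unlike number. With 3 arrays a population these correlations cannot decide whether equal numbers pair the samples, and the main fit assumed no pairing. With the replicate block 4, 4 and 2 receptors and 20, 16 and 20 pathway genes were called, and 5 of 9 arrays correlated best with an array of their own number. Levels near the array medians limit what can be read for Havcr1, Stab2, Cd300lb and Megf10.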
